A study of Homo sapiens and Mus musculus with 9 samples.

Results

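The peak list examined here came from liver of mice that carry human PXR and held 2178 of the 5884 peaks in the 4 lists of the series. All peaks of the list were taken, with no selection by value. PXR, the pregnane X receptor encoded by NR1I2, is a nuclear receptor best known in liver as a sensor of drugs and bile acids that switches on genes of drug metabolism and transport. Such receptors bind DNA, and enhanced UV crosslinking and immunoprecipitation sequencing (eCLIP) asks instead which RNAs the protein touches: UV light joins protein to RNA in place, RNase trims the RNA, an antibody recovers the protein, and the attached fragments are sequenced. An abundant RNA or a repeated sequence can give many reads in any such library, whether or not the protein sits there.

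The liver group comprised 1 input library and 2 immunoprecipitate (IP) libraries made with an antibody to PXR, per the labels, from tissue described as normal. The comparison list came from HepG2, a human hepatoma line, with 1 input and 2 IP libraries made with an antibody to the HA tag. The receptor in the mouse tissue is thus the human protein among mouse RNAs, whereas HepG2 supplies human RNAs and a tagged protein. The promoter that drives the human gene, the strain, age and sex of the mice and the number of animals are not given in the sources used here. Liver tissue holds hepatocytes together with endothelial, immune, stellate and bile duct cells, and its makeup was not checked, since marker genes need mouse gene names, which were not used here. Each group is represented by 1 list, and whether the authors pooled the 2 IP libraries is not stated. No spread between replicates could be computed, and intervals and tests below cover counting error over peaks only. Tissue and line also differ in species, genome and antibody, and may differ in library depth, which was not measured here. The part of each in a difference cannot be told apart.

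The reads behind each peak were recovered from the authors' deposited fold enrichment and −log10 p, as described under processing. Each peak has a number of reads at its summit and a number in the 10 kb window around it on the same strand, and the fold compares the first with the second. A whole number of reads solved 2177 of the 2178 liver peaks uniquely. The exception was the deepest peak, with 4 possible values between 193869 and 193872 reads. These solutions take the background of a peak from the reads around it in the same library or pool. A fold enrichment so defined cannot pass 50, and the highest deposited liver value was 49.99.

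Liver sites are given by mm10 position, counted from 1, and the comparison with HepG2 by gene was not run. HepG2 sites carry the names of the GRCh38 RefSeq table.

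The liver list combined very few, extremely deep sites with many shallow ones. The median peak had 13 reads at its summit, with quartiles of 6 and 33, and 904 peaks (41.5%, exact 95% interval 39.4 to 43.6%) rested on fewer than 10 reads. At the other end 379 peaks (17.4%) had at least 50 reads, 97 had at least 200 and 15 at least 1000. Summit reads added up to 353001 over the list, and the deepest peak alone gave 54.9% of them. Without that peak and the mitochondrial peaks 116167 reads remained. The weakest peaks, among them ones on chromosomes 1, 5 and 19, had 3 reads of 6 in their window and a deposited −log10 q of 1.3.

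**Figure D1:**
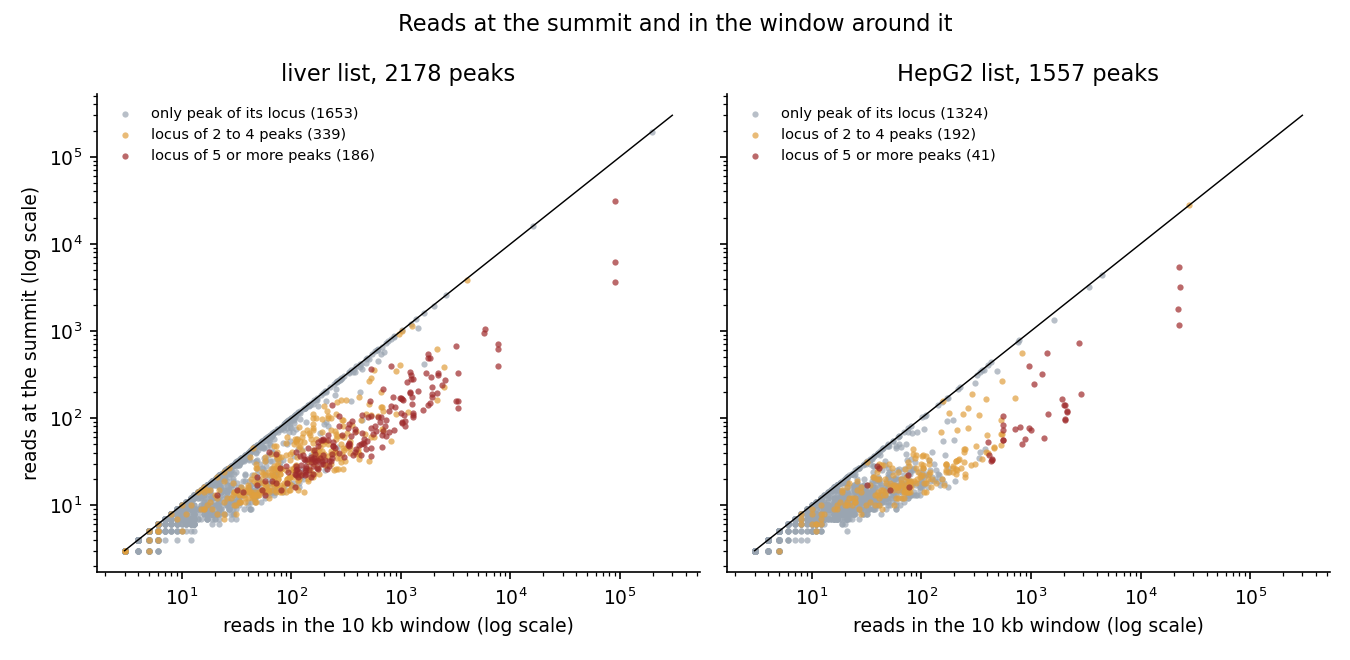
Reads at the summit (vertical axis, log scale) against reads in the 10 kb window around it on the same strand (horizontal axis, log scale) for the 2178 liver peaks and the 1557 HepG2 peaks, 1 point each, coloured by the number of peaks in the locus. On the diagonal all reads of the window lie at the summit, as in 893 liver peaks. The 186 liver peaks in loci of 5 or more peaks lie below it.

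In the plot of summit against window reads, many deep liver peaks lay on or near the diagonal and many others lay below it. Of the 379 peaks with at least 50 reads, 158 (41.7%) held at least 90% of the reads of their window, 170 (44.9%) held under 50%, and 51 (13.5%) lay between. For the 90 HepG2 peaks with at least 50 reads these shares were 34.4%, 52.2% and 13.3%. The first kind is a stack of reads with few or no others in its window. For the second kind most reads of the window lay outside the summit.

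The 20 liver peaks with most reads were mostly of the first kind. In 14 of them the summit held at least 90% of the window, and in 6 it held every read. The deepest stack, at chr2:90394970-90395190 on the minus strand, was 221 bp wide and had 193869 to 193872 reads with none elsewhere in the window. The next stack of this kind, at chrX:87238360-87238585 on the plus strand, had 16151 reads. Further stacks that held all their window reads lay at chrX:33416488-33416702 (1623 reads), chr6:61267394-61267595 (1386 reads) and chr13:9834170-9834374 (856 reads), and another was on chromosome 18 (2570 reads). Those at chr4:82506468-82506673 (1026 of 1031 reads) and chr3:108086218-108086420 (867 of 871 reads) came within 5 reads of it.

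Other leading peaks had nearly all of their window reads but were broader. On the plus strand of chromosome 1, chr1:87776968-87777360 had 3858 of 4007 window reads and chr1:87784586-87784950, in the same locus, 914 of 952. The site at chr3:69084969-69085317 had 1950 of 2000 reads, chr6:124715310-124715656 had 1198 of 1244, and chr7:111075893-111076166 had 999 of 1023. These peaks were 274 to 393 bp wide, whereas the 6 stacks without other reads were 202 to 260 bp wide. The site at chr3:108554200-108554688 was wider still, 489 bp, and held 1084 of 1440 reads.

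The remaining leading peaks were 4 mitochondrial ones and 2 on chromosome 17. The mitochondrial genome, a small circle transcribed from both strands in long precursors, carried 8 liver peaks, 5 on the plus and 3 on the minus strand, with 42965 summit reads together. The highest, at positions 1146 to 2094, had 31100 reads and the next, at 2263 to 2557, had 6129. Another at 212 to 580 had 3644 reads with a fold of 2.03, near the lowest in the list, with 89946 reads in its window. Further along the plus strand reads were far fewer, 395 at 11626 to 11913 and 138 at 15322 to 15525, in windows of 812. On the minus strand the site at 4836 to 5241 held 1147 of 1267 window reads, that at 15179 to 15388 held 352 of 564, and that at 13153 to 13434 held 60. HepG2 had 10 mitochondrial peaks, 0.642% of its list against 0.367% for liver (Fisher's exact adjusted p = 0.271, odds ratio 0.570 with an interval of 0.195 to 1.61). In HepG2 the leading mitochondrial peaks lay in the ribosomal RNA genes RNR2, with 5464 reads, and RNR1, with 1782.

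Most liver peaks were at or close to the narrowest width in the list. The list held no peak under 200 bp, 1040 of exactly 200 bp (47.8%, interval 45.6 to 49.9%) and 353 more of 201 to 205 bp. The median was 201 bp and the upper quartile 234 bp. Each read counted as 200 bp in the recovery of reads, so a stack of reads that begin at 1 base gives this width. In 500 of the 1040 narrowest peaks the summit lay exactly 100 bases from the left edge, and in 683 it lay 99 to 101 bases from it. In the 457 peaks of 250 bp or more the summit was also central, at 50.4% of the width from the 5′ edge (quartiles 42.6 and 55.8%).

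Deep peaks were wider. The median width was 200 bp for peaks of 3 to 6 reads, 203 bp for 10 to 19, 217 bp for 20 to 49, 249 bp for 50 to 199 and 295 bp for those with 200 or more. Peaks of exactly 200 bp made up 92.7% of the shallowest bin and 10.3% of the deepest (10 of 97, interval 5.06 to 18.1%). Outside chromosome 18, which was left out of this ranking, the deepest 200 bp peaks with every window read at the summit were 4 stacks. They were chr7:73719315-73719514 with 734 reads, chr7:84529005-84529204 with 621, chr15:45299064-45299263 with 584 and chr11:98294773-98294972 with 479. How many of the reads in such stacks are PCR copies was not tested, since the list has no molecular identifiers.

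Chromosome 18 was left out when nuclear peaks were ranked by width. The widest of the others were on the Y chromosome, at chrY:90811323-90813150 (1828 bp, 381 reads) and chrY:90737518-90739022 (1505 bp, 414 reads). Further ones over 1 kb lay at chr17:56119634-56120890 (94 reads), chr15:3279282-3280513 (83 reads), chr15:99408722-99409832 (34 reads), chr19:5844017-5845089 (74 reads) and chr8:109574992-109576044 (628 reads). All of these had reads beyond the summit, which held at most 29.2% of the window. In all 56 liver peaks (2.57%) were 500 bp or wider.

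**Figure D2:**
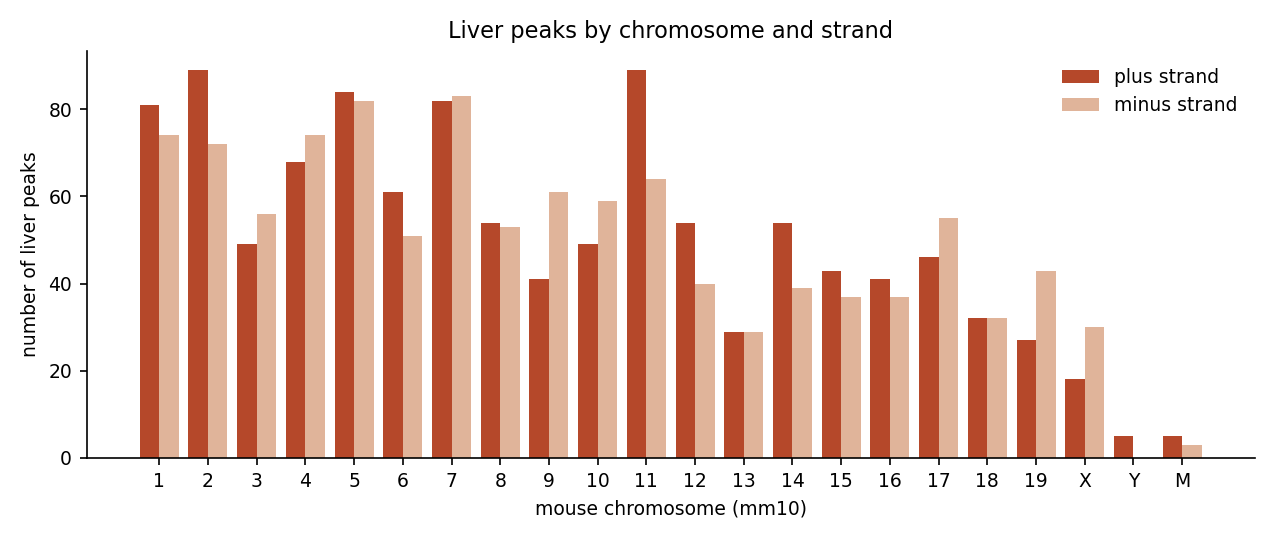
Number of liver peaks (vertical axis) on each mouse chromosome (mm10, horizontal axis), plus strand in dark and minus strand in light bars. Chromosomes 5, 7 and 2 carried most, with 166, 165 and 161 peaks, and chromosome X 48.

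Peaks fell on all 19 autosomes, with 2114 of them there, 48 on X, 5 on Y, 8 on the mitochondrial genome and 3 on scaffolds. Counted over the stretch from the first to the last peak of a chromosome, chromosomes 11, 19, 17, 7 and 5 were the densest autosomes, with 1.31, 1.28, 1.21, 1.18 and 1.16 peaks per Mb, and chromosome 13, with 0.499, was the sparsest. X had 0.304, and Y had 1.72 from its 5 peaks over 2.9 Mb. These values are peaks and not RNA amounts, and they were not tested. On chromosomes 13 and X most peaks were stacks without other reads in the window, 63.8% and 60.4%, whereas on chromosome 17 these made up 27.7%. Median summit reads were 8 on chromosome 13, 10.5 on X and 19 on chromosome 17. The part of summit depth in this contrast was not tested. The Y peaks were all on the plus strand, and 3 of the 5 (chrY:90811323-90813150, chrY:90813566-90813806 and chrY:90819467-90819716) formed 1 locus.

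The strands were balanced in liver. The plus strand carried 1101 peaks and the minus strand 1077, and the plus share of 50.6% had an interval of 48.4 to 52.7%. Among the 19 autosomes the share ran from 38.6% on chromosome 19 to 58.2% on chromosome 11, and 0 of the 19 exact intervals excluded 50%. The share also stayed between 47.4 and 52.5% in each of 6 bins of depth. In HepG2 the plus strand carried 53.1%, a difference that did not pass the test (odds ratio 0.905, interval 0.792 to 1.03, Fisher's exact adjusted p = 0.174).

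Peaks on opposite strands overlapped at 7 places in liver. At chr5:122459498-122459697 the plus-strand peak had 26 reads and its minus-strand partner 20, at chr8:70597938-70598137 14 and 21, and at chr6:128829063-128829265 16 and 14. At chr2:173276342-173276541 they were unequal, 4 against 46. The deepest pair was mitochondrial, with 138 reads on the plus and 352 on the minus strand. In 6 of the 7 pairs the minus-strand peak began to the left of the plus-strand peak, and the shared stretch was 20 to 179 bp. The same order held in 7 of 7 HepG2 pairs, with 35 to 48 bp shared. HepG2 also had 7 such places, and the shares of peaks in them, 0.643% and 0.899%, differed by an amount that did not pass the test (odds ratio 0.713, interval 0.314 to 1.62, Fisher's exact adjusted p = 0.442). With peaks of −log10 q of at least 5 alone, liver had the lower share (odds ratio 0.358, exact adjusted p = 0.0383), but with peaks of at least 10 reads alone the difference again did not pass (odds ratio 0.809, exact adjusted p = 0.784).

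Neighbouring peaks of 1 strand within 20 kb were joined into loci, a distance that neighbouring exons of a gene often span. The 2178 liver peaks formed 1820 loci, 1653 with a single peak (90.8%) and 167 with 2 or more. The multi-peak loci comprised 99 of 2 peaks, 31 of 3, 12 of 4 and 25 of 5 or more. Peaks that were alone in their locus had a median of 9 reads in windows of 12, and 879 of these 1653 (53.2%) held every read of the window. The 525 peaks in multi-peak loci had a median of 35 reads in windows of 153, and 14 of them (2.67%) held every read. Part of this contrast follows from the definitions, as peaks of a locus can lie in each other's windows and a busy window raises the reads needed for a call.

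**Figure D3:**
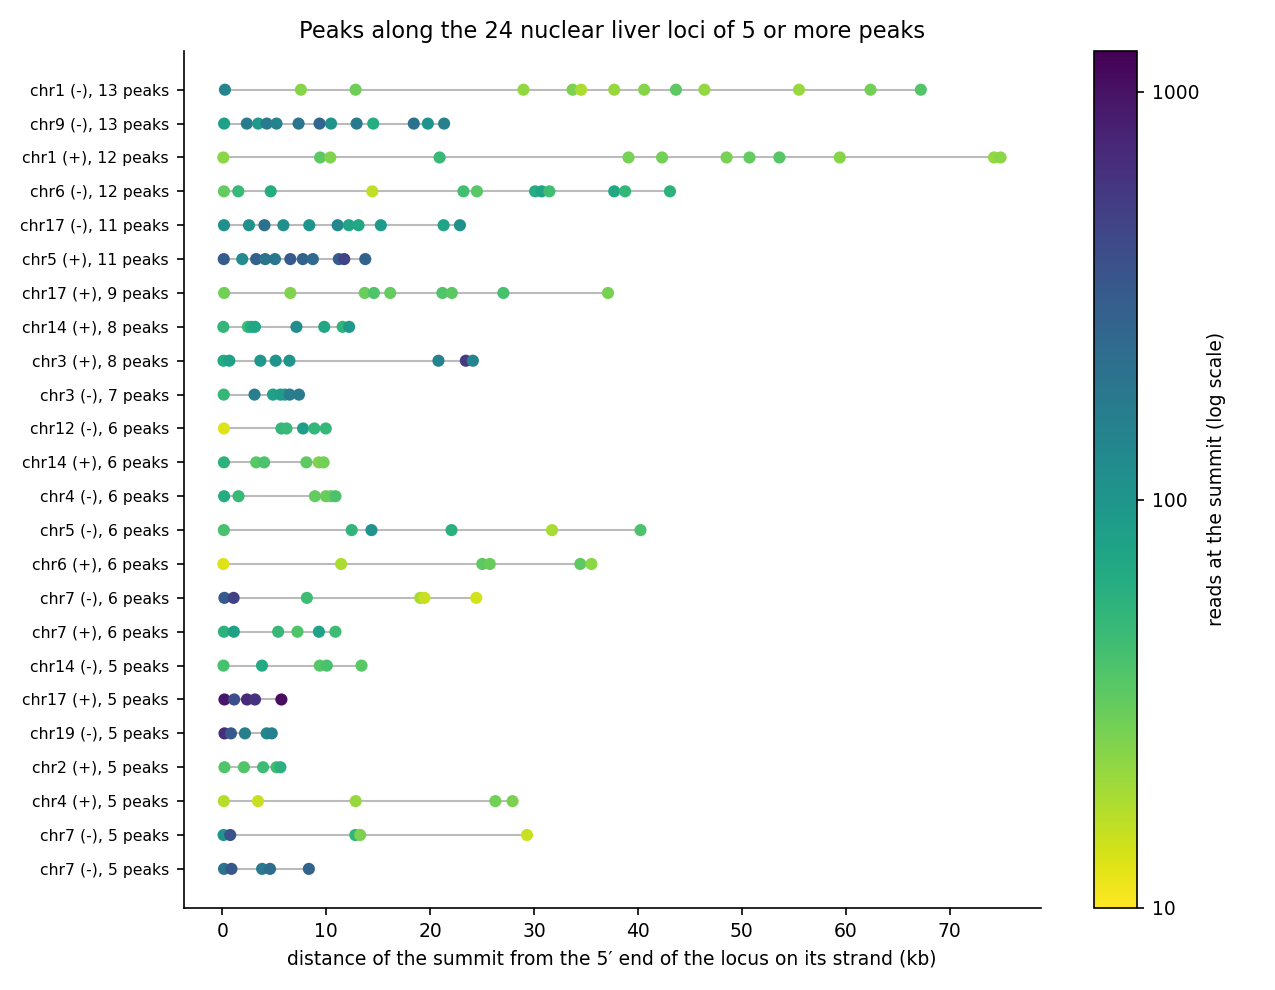
Summits along the 24 nuclear liver loci of 5 or more peaks, 1 line per locus, by distance in kb from the 5′ end of the locus on its own strand (horizontal axis), with colour for the reads at the summit (log scale, 10 to above 1000). The loci span 4.94 to 75 kb, and dark points mark the deepest peaks, on chromosome 17 with up to 1062 reads.

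The 25 loci of 5 or more peaks were 24 nuclear loci on 12 chromosomes and the plus strand of the mitochondrial genome. With a gap of 5 kb in place of 20 kb there were 15 such loci. The nuclear loci held 181 peaks, 11 loci being on the plus and 13 on the minus strand. They spanned 4.94 to 75 kb with a median of 17.7 kb, and 0 peaks of the other strand lay within any of them. None of their peaks held every read of its window, and the median share per locus ran from 4.92 to 35.8%. Part of this follows from the definition, as peaks of a dense locus can lie in each other's windows. Within a locus the deepest peak had a median of 2.80 times the reads of the shallowest (range 1.54 to 35.1). The place of the deepest peak followed no single side of the locus. Along the strand it lay in the first 25% of the length in 9 loci, in the last 25% in 7 and between in 8.

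Long loci with modest peaks formed one end of this set. The locus at chr1:67156159-67231205 on the plus strand was the longest, 75 kb, with 12 peaks of 22 to 48 reads. On the minus strand of the same chromosome chr1:71585579-71653100 had 13 peaks over 67.5 kb, and its deepest peak, with 142 reads, stood at the 5′ end at chr1:71652699-71653100 where the median was 24. The locus at chr6:128483456-128526661 had 12 peaks of 16 to 75 reads, chr17:12382090-12419443 had 9 of 25 to 41, and chr5:89417400-89457764 had 6 of 19 to 105. A second chromosome 6 locus, chr6:121840128-121875771, had 6 peaks of 13 to 34 reads. Neighbouring summits were a median of 3117 to 8718 bases apart in these loci.

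The loci on chromosomes 5, 9 and 17 described next were shorter than these, and each of their peaks had at least 63 reads. The plus-strand locus at chr5:90460934-90474859 carried 11 peaks over 13.9 kb, none under 125 reads. From 5′ to 3′ its summits had 314, 125, 296, 196, 190, 326, 275, 240, 314, 485 and 279 reads, and up to 2499 reads filled a window. The highest of them, at chr5:90472476-90472817, lay at 84.2% of the way along. The minus-strand locus at chr9:103208761-103230249 had 13 peaks over 21.5 kb, with 81, 170, 92, 174, 146, 193, 260, 107, 176, 63, 213, 103 and 157 reads from 5′ to 3′. At chr17:57203896-57226836 on the minus strand 11 peaks had 70 to 207 reads. In these 3 loci neighbouring summits were a median of 1269 to 1983 bases apart.

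A pair of dense loci stood next to each other on opposite strands at 2 places. On chromosome 3 the plus-strand locus chr3:83007893-83032145 (8 peaks of 66 to 539 reads) was followed after 10079 bases by the minus-strand locus chr3:83042225-83049766 (7 peaks of 50 to 172 reads). Each had its deepest peak at its 3′ end, at 96.6 and 97.6% of its length, so that the high ends faced each other. On chromosome 14 chr14:30889625-30901981 on the plus strand (8 peaks of 47 to 119 reads) lay 6470 bases from chr14:30908452-30921996 on the minus strand (5 peaks of 35 to 67 reads). There the deepest peaks stood within the loci, at 57.6 and 28.1% of their length.

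The most crowded windows of the nuclear loci lay in 2 short loci. At chr17:39843010-39848922 on the plus strand 5 wide peaks (median 723 bp) had 942, 400, 706, 616 and 1062 reads from 5′ to 3′, in windows of up to 7690. At chr19:5797036-5801972 on the minus strand 5 peaks had 678, 331, 158, 131 and 155 reads, the 2 highest at the 5′ end, in windows of up to 3339. The loci at chr7:105591501-105600063 (5 peaks of 174 to 339 reads) and chr2:173153342-173159089 (5 peaks of 37 to 57 reads) were also short, 8.56 and 5.75 kb.

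At 2 loci the 2 peaks nearest the 5′ end were deep and the others weak. At chr7:19673139-19697639 on the minus strand the 6 peaks had 327, 492, 45, 19, 15 and 14 reads from 5′ to 3′, the widest ratio of the nuclear loci. At chr7:46711910-46741387, also on the minus strand, the 5 peaks had 106, 363, 53, 26 and 15. As a 20 kb gap can join neighbouring genes, such a locus may hold more than 1 gene, which was not checked. The remaining loci of 5 or more peaks, on chromosomes 4 (2 loci), 7, 12 and 14, had 13 to 86 reads per peak.

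Reads around the summit were plentiful at some smaller loci as well. At chr8:109574992-109576044 and chr8:109577030-109577231 on the minus strand the summits held 628 and 161 of 2148 window reads. The peak at chr16:22894368-22894585 had 117 of 1149 reads, chr9:46228989-46229395 had 112 of 905 and chr12:104411215-104411414 had 54 of 804. Windows with at least 1000 reads beyond the summit occurred at 14 liver loci, and windows with at least 100 at 100 loci, against 4 and 56 in HepG2. As shares of all peaks in each list, these were 2.07% and 13.4% in liver against 0.963% and 7.19% in HepG2. The cutoffs are read counts that were not scaled to library depth.

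Against HepG2, the liver list had deeper peaks and more that shared a locus. It was also the larger list, with 2178 peaks against 1557, and median gaps between neighbouring summits were 899830 and 1573213 bases. Peaks that lie closer together more often fall within 20 kb of another, and the part of this in the locus share was not tested. Peaks with at least 50 reads made up 17.4% in liver and 5.78% in HepG2 (90 of 1557, odds ratio 3.43, interval 2.69 to 4.42, Fisher's exact adjusted p = 3.46e-27). That cutoff is a read count not scaled to library depth, and the part of library depth in this difference was not tested. Peaks in a locus of 2 or more peaks made up 24.1% and 15.0% (odds ratio 1.80, interval 1.52 to 2.15, Fisher's exact adjusted p = 1.92e-11). The adjustment runs over 9 such shares. Peaks of 1 locus are not independent, so these p-values are too small, and they compare 2 lists and not 2 conditions. Within bins of summit reads the share of peaks in multi-peak loci did not pass the test in any of 6 bins (smallest Fisher's exact adjusted p = 0.0927, at 10 to 19 reads, 23.4% against 17.0%).

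**Figure D4:**
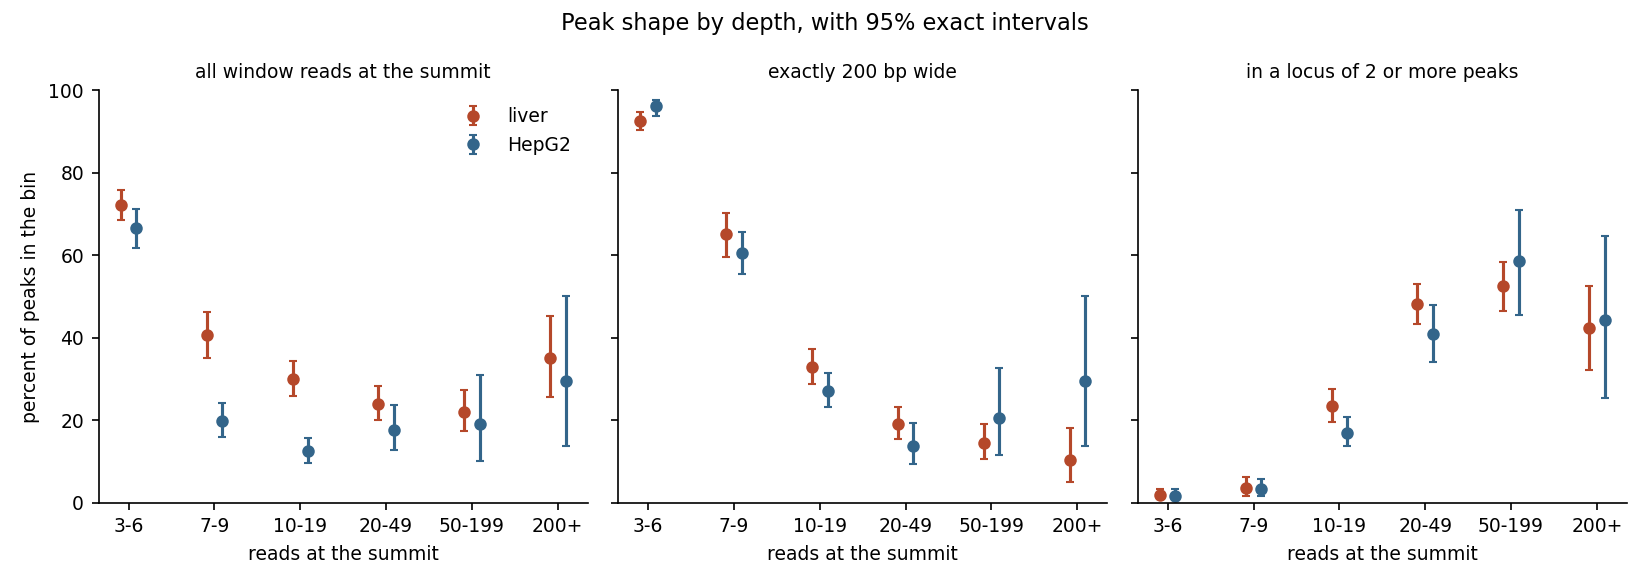
Percent of peaks (vertical axis) with all window reads at the summit (left), exactly 200 bp wide (middle) and in a locus of 2 or more peaks (right), by bins of summit reads (horizontal axis), for the liver and HepG2 lists, with exact 95% intervals as bars. In the left panel liver stands above HepG2 at 7 to 9 and 10 to 19 reads; in the right panel liver climbs from 1.86% at 3 to 6 reads to 48.2% at 20 to 49.

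Stacks without any other read in the window were also more frequent in liver, 41.0% against 30.1% (odds ratio 1.62, interval 1.41 to 1.86, Fisher's exact adjusted p = 1.92e-11). This difference was present in the bin of 7 to 9 summit reads, 40.6% against 19.8% (Fisher's exact adjusted p = 3.77e-08), and in that of 10 to 19, 30.0% against 12.5% (adjusted p = 5.39e-10). In the other 4 bins it did not pass, with adjusted p between 0.155 and 0.882 by the same exact test. The bins match summit reads and not library depth. Peaks holding under 50% of their window were fewer, 30.6% in liver and 37.1% in HepG2 (odds ratio 0.748, interval 0.651 to 0.860, Fisher's exact adjusted p = 6.77e-05). Peaks of exactly 200 bp made up 47.8% and 51.6% (odds ratio 0.856, interval 0.750 to 0.977, Fisher's exact adjusted p = 0.0302), a call that was lost without peaks under 10 reads (odds ratio 0.964, exact adjusted p = 0.784).

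The deepest HepG2 peak was also a stack in a quiet window, with 27958 of 27962 reads on a chromosome 22 scaffold. Next came RNR2, a stack in SYCP2L, which encodes a meiotic chromosome protein, with all 4408 reads of its window, and RMRP, the RNA of the mitochondrial RNA processing ribonuclease, with 3179 of 3415. RPPH1, the RNA of ribonuclease P, had 1321 of 1630 reads. These names belong to GRCh38, and whether the liver stacks lie in the matching mouse genes was not analysed here.

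HepG2 had 7 loci of 5 or more peaks among its 1416 loci, against 25 among 1820 in liver, both with the 20 kb gap. Liver had 15 with a 5 kb gap and 31 with 50 kb, and no such recount was made for HepG2. The largest locus had 7 peaks in HepG2 and 13 in liver. The HepG2 loci included the nuclear lncRNA genes NEAT1 (7 peaks of 50 to 79 reads) and MALAT1 (6 peaks of 96 to 166 reads). Others lay in the snoRNA host gene GAS5 (5 peaks of 56 to 105 reads) and in VMP1, which encodes an autophagy protein (5 peaks of 32 to 53 reads). A further locus was a histone gene cluster on chromosome 6 (6 peaks of 15 to 28 reads, in H4C4, H3C4, H2AC7, H2BC8, H1-3 and H3C7). The remaining loci lay on the mitochondrial genome and on the same chromosome 22 scaffold. The histone cluster shows that a locus can join several genes. In liver 6 loci had 10 or more peaks and in HepG2 0 did.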

How the data were processed

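Cutadapt, BWA, MACS2, hg38 and mm10 are named, without versions or settings, per the submitters' processing notes. The authors deposited 1 list of peaks for liver IP and 1 for HepG2, with strands called separately per the peak names. Each peak carries the authors' deposited score (in all 2178 liver peaks 10 times the −log10 q, cut to a whole number), a fold enrichment ratio, −log10 p (a p-value), −log10 q (a q-value) and a summit position.

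With background λ, fold = (n + 1) / (λ + 1) and p is the Poisson tail above n. Whole values of n were tried in turn, keeping those within 0.001 of the −log10 p plus a small relative term, with λ a multiple of 0.02 (200 bp reads, 10 kb window; window count whole within 0.01 plus rounding) and at least n reads in the window. Peaks were simulated with this same formula and whole window counts, as many as in each list. The recovery returned 2178 of 2178 for the liver number and 1557 of 1557 for the HepG2 number. As the formula was shared, this checks the solving only. It cannot show whether the 200 bp and 10 kb settings hold for the deposited lists. The simulated depths stopped short of the deepest liver peaks. Reads may include PCR copies. The Clopper-Pearson 95% intervals are computed on counts of peaks and cover counting error only.

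Liver and HepG2 peaks were compared with two-sided Fisher's exact tests and Benjamini-Hochberg adjustment over 9 shares, and over 18 tests within depth bins, with conditional odds ratios (SciPy 1.17.1, Python 3.11.15). HepG2 summits were named with the GRCh38 RefSeq table without strand, taking a small RNA gene first and otherwise the shortest protein-coding or lncRNA gene. The sites and settings were chosen with earlier results of these data known. The text names the 20 deepest liver peaks, all loci of 5 or more peaks and all mitochondrial peaks; the widest peaks, single-width stacks, strand pairs and busy windows were added after their values were seen. Chromosome 18 was left out when the widest peaks, single-width stacks and busy windows were picked. Comparisons by gene and gene lists, planned for a mouse annotation, were not run, and the LS174T lists were only counted.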

Additional observations from a re-analysis of the deposited data

How the results depend on the processing

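Of 37 values recomputed under alternatives, 25 stayed within the limits set for them. Keeping peaks with −log10 q of at least 5 lowered the liver share with all window reads at the summit to 33.0% and the share of 200 bp width to 32.1%. Keeping peaks of at least 10 reads left 1274 peaks and gave 26.6% and 22.6%. Loci of 5 or more peaks numbered 15 with a 5 kb gap, and single-peak loci made up 92.7% there, 88.7% with 50 kb and 83.7% with at least 10 reads per peak, an alternative chosen after seeing the data. Against HepG2, the lower liver share of 200 bp peaks (odds ratio 0.856, Fisher's exact adjusted p = 0.0302) was lost with −log10 q of at least 5 (odds ratio 0.904) and with at least 10 reads (0.964), and the share in opposite-strand overlaps passed with −log10 q of at least 5 (odds ratio 0.358, exact adjusted p = 0.0383); the cause was not tested. The split by depth bins was also chosen after seeing the data. No paired analysis was possible because each group has 1 list without values per library. Alternatives on genes and gene lists were not run. Depth limits the order of the 904 peaks under 10 reads.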
